A study of Mus musculus with 9 samples.

Results

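The 10 alternative activation genes described here were Mrc1, Arg1, Arg2, Retnla, Il4ra, Egr2, Tgm2, Ccl17, Ccl22 and Ccl24, chosen by symbol among the 46078 genes of the deposited table. They were followed in 9 RNA-seq libraries of cultured C57BL/6J mouse macrophages, 3 from each of 3 cultures. BMM were macrophages from bone marrow, and the labels used here do not describe their medium. FLM_M came from fetal liver of gestational day 15 to 19 and were grown in medium holding 30% of the supernatant of L cells, which secrete M-CSF (macrophage colony-stimulating factor), with fetal bovine serum (FBS) at 20%. FLM_G came from fetal liver of the same days and were grown with 10% FBS and recombinant mouse GM-CSF, the granulocyte and macrophage growth factor, at 30 ng/ml. Every culture was kept for at least 8 weeks and plated 1 day before harvest, in triplicate wells. The 3 libraries of a culture were therefore wells, and p-values measure the spread between them, which may be technical. No IL-4, IL-13 or other activating agent is named in the labels for any group.

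Alternative activation is the state that macrophages enter when IL-4 or IL-13 binds a receptor built on the IL-4 receptor alpha chain (Il4ra), which signals through JAK kinases to the transcription factor STAT6. In mouse macrophages STAT6 and factors such as EGR2 turn on a characteristic set of genes. They include the mannose receptor CD206 (Mrc1), arginase 1 (Arg1), the secreted RELM-alpha (Retnla), transglutaminase 2 (Tgm2) and the chemokines CCL17, CCL22 and CCL24. GM-CSF and M-CSF are growth factors that set macrophages on different courses, GM-CSF being the factor on which alveolar macrophages depend.

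Levels are FPKM (sequenced fragments divided by transcript length and library size) scaled between libraries by TMM factors. They can be compared between genes because they are per transcript length. Changes are differences of log2(scaled FPKM + 1), which understate the fold of genes at a low level. A gene was tested when it reached 1 FPKM in at least 3 libraries, as 11952 did. It was called at an adjusted p (limma, Benjamini-Hochberg over all 11952 genes) under 0.05. The FPKM steps placed the libraries at 2.84e+07 to 3.55e+07 reads. The TMM factors were 1.08 to 1.14 in BMM and FLM_M and 0.80 to 0.82 in FLM_G, so deposited FPKM are raised by the scaling in FLM_G and lowered in the other cultures.

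All 8 macrophage markers, among them Adgre1, Csf1r and Cd68, had a mean above 1 scaled FPKM in every culture. Hepatocyte, erythroid, mast cell and fibroblast markers were at or near 0 apart from Afp (0.79 to 2.57 over the 9 libraries) and Epor (at 0 in BMM, 2.17 to 2.53 in FLM_M and 4.16 to 6.00 in FLM_G). Of the lymphocyte markers Il7r was at 10.8 to 25.8, while Cd3e was at 0. The endothelial markers summed to 2.49 to 2.58 in BMM, 8.56 to 10.3 in FLM_M and 12.4 to 13.5 in FLM_G, mostly from Kdr in FLM_M (5.77 to 7.59) and from Vwf (8.14 to 9.08) and Cdh5 (4.19 to 4.34) in FLM_G. Libraries of the same culture correlated at 0.986 to 0.992 (Pearson, across genes) and those of different cultures at 0.785 to 0.936. Xist, the RNA of the inactive X chromosome, was at 0.002 in BMM, 70.9 in FLM_M and 48.5 in FLM_G (means). Ddx3y, on the Y chromosome, was at 8.47 to 10.4 in the BMM libraries, 0 in FLM_M and 0 or 0.016 in FLM_G. Tissue of origin and these sex-linked genes therefore differed together between BMM and both fetal liver cultures. The BMM medium is not described in the labels used here, so growth factor and serum may differ there as well. The parts of all these in the comparisons with BMM cannot be told apart. FLM_G and FLM_M differed in growth factor and in serum, which cannot be told apart either.

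Of the 10 genes, 7 passed the filter and 3 (Arg2, Retnla and Ccl24) did not. Mrc1 and Il4ra reached 1 FPKM in every library. Tgm2 reached it in BMM and FLM_G, Arg1 in BMM alone, and Egr2, Ccl17 and Ccl22 in FLM_G alone. Arg1, Egr2, Ccl17 and Ccl22 could pass only through the culture where they were high, so that their calls against it follow in part from the filter and are given as descriptions.

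In FLM_M against BMM, 4 of the 7 tested genes were called, 1 higher and 3 lower, where 44.6% of all tested genes were called (22.7% higher, 21.9% lower). In FLM_G against BMM all 7 were called, 4 higher and 3 lower, against 68% of all genes (33.8% higher, 34.1% lower). In FLM_G against FLM_M all 7 were called, 6 higher and 1 lower, against 70.6% of all genes (35.5% higher, 35.1% lower). The medians of the 7 changes were -0.17, 1.42 and 1.60, beside -0.00, -0.00 and 0.00 for all tested genes. The 2 comparisons with BMM share its libraries, and those with FLM_G or FLM_M share theirs. Given the share of genes called and the 4 genes that passed through 1 culture, the counts say little about the set. The description that follows rests on single genes. Without scaling, the median of all genes moved to 0.05, -0.34 and -0.39, and the split of all called genes turned from 2716 higher and 2613 lower to 3323 and 2240 in FLM_M against BMM, from 4044 and 4081 to 2081 and 6775 in FLM_G against BMM, and from 4246 and 4195 to 2218 and 7075 in FLM_G against FLM_M. The members called in FLM_G against FLM_M were then 5 higher and 2 lower. Changes below are relative to the scaled median.

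**Figure D1:**
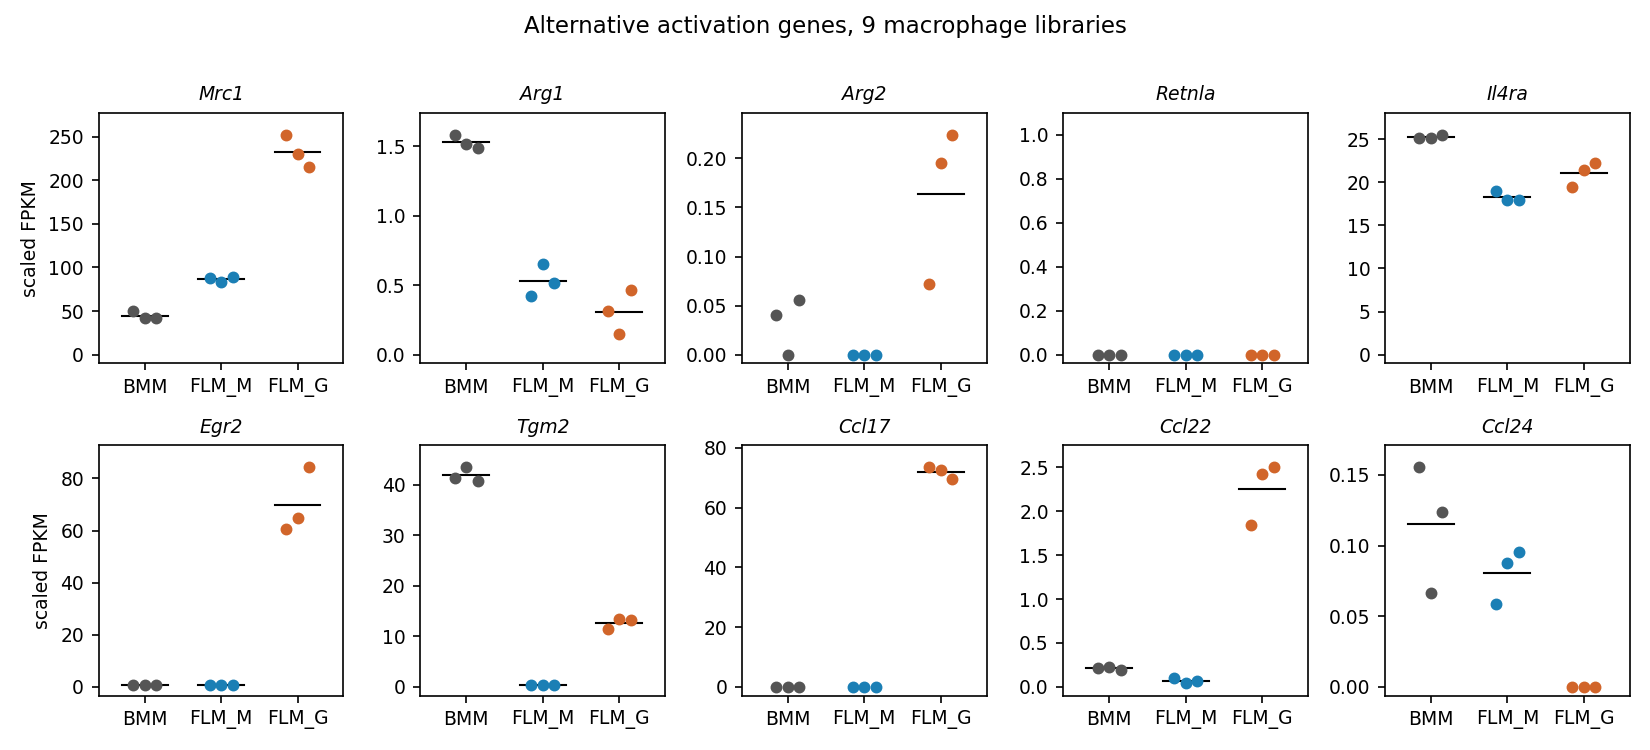
Scaled FPKM (vertical axis, linear, a scale of its own in each panel) of the 10 alternative activation genes in the 9 libraries, by culture. Points are libraries and bars are means, drawn where no library of a culture is at 0. Mrc1 rises from BMM (42.1 to 49.5) to FLM_M (83.8 to 89.5) to FLM_G (215 to 252), Egr2, Ccl17 and Ccl22 are high in FLM_G, and Tgm2 is lowest in FLM_M (0.39 to 0.47).

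The receptor chain Il4ra (chromosome 7, 125552120 to 125579474, plus strand, GRCm38) was present in all cultures at a similar level. It was at 25.2, 25.2 and 25.5 scaled FPKM in BMM, at 19.0, 18.0 and 17.9 in FLM_M, and at 19.5, 21.5 and 22.2 in FLM_G. The BMM libraries were the highest and no groups overlapped. Il4ra was 1.38-fold lower in FLM_M than in BMM (-0.45 on the log2 scale, SE 0.05, limma adjusted p = 2.06e-04). In FLM_G it lay 1.20-fold below BMM (-0.26 on the log2 scale, SE 0.05, limma adjusted p = 0.00295). Between the fetal liver cultures the sign depended on the scaling. Il4ra was higher in FLM_G by 0.19 (SE 0.05, limma adjusted p = 0.0128) after scaling, and lower, at -0.27 (limma adjusted p = 0.00101), in the FPKM as deposited.

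The partner chains of the receptor differed more than Il4ra itself. Il2rg, the common gamma chain that pairs with Il4ra in the type I receptor, was at 40.3, 42.0 and 42.3 in BMM, 80.9, 82.9 and 83.2 in FLM_M and 109, 117 and 116 in FLM_G. It was higher in FLM_M than in BMM (log2 change 0.97) and higher in FLM_G than in BMM (1.43), each beyond the spread between libraries. Il13ra1, the chain that pairs with Il4ra in the type II receptor for IL-4 and IL-13, was at 3.00, 2.93 and 2.61 in BMM, 0.074, 0.077 and 0.146 in FLM_M and 19.1, 17.4 and 16.4 in FLM_G. Its groups lay far apart, with log2 changes of 2.27 in FLM_G against BMM and 4.08 in FLM_G against FLM_M. Of the 6 genes of ligands and receptor chains 3 were tested, and all 3 were called in each comparison. Of all tested genes 44.6% were called in FLM_M against BMM, 68% in FLM_G against BMM and 70.6% in FLM_G against FLM_M. The 3 were split as 1 higher and 2 lower in FLM_M against BMM, 2 and 1 in FLM_G against BMM and 3 and 0 in FLM_G against FLM_M. In the last comparison the split was 1 and 1 without scaling, where Il2rg was at -0.02 and no longer called. The ligands Il4 and Il13 were listed at 0 in all 9 libraries, and so no transcript of either was detected in any culture. Il13ra2, the decoy chain, did not pass the filter.

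Of 13 genes that carry or restrain the signal from the receptor 12 were tested, and Irs1, an adaptor of the IL-4 receptor, did not pass the filter. Stat6 was at 55.9, 59.0 and 55.8 in BMM, 46.3, 40.5 and 40.9 in FLM_M and 42.5, 41.9 and 44.6 in FLM_G. It was lower than in BMM by a log2 change of -0.41 in FLM_M (limma adjusted p = 5.80e-04) and of -0.40 in FLM_G (limma adjusted p = 3.74e-04). Of 12 tested genes of IL-4 signal transduction, 2 were higher and 2 lower in FLM_M against BMM, 6 and 2 in FLM_G against BMM, and 5 and 1 in FLM_G against FLM_M. Among all tested genes 44.6%, 68% and 70.6% were called. Without scaling the last 2 splits were 3 and 4, and 3 and 7, so that no direction of the group held under both. Cish was tested only through FLM_G. Socs3, which encodes an inhibitor of cytokine signalling, was at 1.02, 1.11 and 1.10 in BMM, 1.45, 1.42 and 1.49 in FLM_M and 16.9, 15.2 and 16.0 in FLM_G, a log2 change of 3.03 against BMM and 2.79 against FLM_M. Inpp5d, the phosphatase SHIP1 that restrains PI3-kinase signals, went the other way, at 43.5 to 45.8 in BMM, 30.2 to 35.7 in FLM_M and 16.6 to 17.6 in FLM_G. Cish, a STAT5 target that also restrains cytokine receptors, was at 0.036 to 0.045 in BMM, 0.035 to 0.048 in FLM_M and 4.71 to 5.09 in FLM_G. It was below the level set for naming and is given after its values were seen.

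Egr2 (chromosome 10, 67535475 to 67542188, plus strand) encodes a zinc finger transcription factor that acts late in alternative activation. It was at 0.771, 0.700 and 0.826 scaled FPKM in BMM and 0.699, 0.791 and 0.800 in FLM_M, so that these cultures overlapped (log2 change -0.00, 95% interval -0.26 to 0.25). In FLM_G it was at 60.6, 64.8 and 84.3, equal to 4187 to 6238 reads against 70.8 to 95.3 in the other 6 libraries. The mean in FLM_G was 91.3-fold that of BMM (log2 change 5.31, SE 0.11) and 91.6-fold that of FLM_M (5.32, SE 0.11). Of 11952 genes, 53 changed by at least as much in FLM_G against BMM.

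Other members of the EGR family were also examined. Egr1, an immediate early gene, was at 1.13 to 1.84 in BMM, 4.91, 6.02 and 5.10 in FLM_M and 7.79, 6.12 and 41.7 in FLM_G. FLM_M thus lay above BMM too. FLM_G library 3 stood apart, and the log2 change of 2.56 against BMM became 1.76 without it. Nab1 and Nab2, co-repressors that bind EGR proteins, moved apart. Nab1 fell by 0.34 in FLM_G against BMM (limma adjusted p = 0.0122), from 19.2 to 21.6 in BMM to 14.1 to 17.9 in FLM_G. Nab2 rose by 0.47 (limma adjusted p = 3.61e-04), from 15.6 to 17.1 to 21.0 to 24.7, and by 0.07 without scaling, where it was not called. Of the 5 genes tested in the family and its co-repressors, 2 were higher and 0 lower in FLM_M against BMM, 4 and 1 in FLM_G against BMM, and 3 and 1 in FLM_G against FLM_M. The calls over all tested genes were 44.6%, 68% and 70.6%. Egr2 and Egr3 (the latter named after its values were seen) passed the filter only through FLM_G, so their higher calls there follow in part from it. Without scaling the last 2 splits were 3 and 1, and 2 and 1.

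Most of the transcription factors linked to alternative activation were higher in FLM_G than in the other cultures, though not all were high there. The list was written with earlier results of these data known. Of 15 tested, Egr2 included, 14 were higher and 1 lower in FLM_G against BMM, beside 33.8% and 34.1% of all tested genes. The median change was 1.44, beside a median of -0.00 and a median size of 0.39 over all genes. The counts were again 14 and 1 in FLM_G against FLM_M, with a median of 1.28, beside 35.5% and 35.1% of all genes. In FLM_M against BMM the counts were 4 and 3, beside 22.7% and 21.9%. Without scaling the split in FLM_G remained 14 and 1 against BMM and was 11 and 1 against FLM_M. Of the 15, Egr2 reached 1 FPKM in FLM_G alone. Ppargc1b, given after its values were seen, also needed FLM_G to pass the filter. It was at 0.629 to 0.674 in BMM, 1.19, 0.753 and 0.736 in FLM_M and 1.49 to 1.70 in FLM_G. The higher calls of both in FLM_G follow in part from the filter.

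Klf4, which acts with STAT6, was at 6.46, 6.43 and 5.64 in BMM, 4.66, 4.13 and 4.87 in FLM_M and 58.2, 60.2 and 64.1 in FLM_G (log2 change 3.11 against BMM). Pparg, the lipid-sensing nuclear receptor, was at 10.8, 9.78 and 10.2 in BMM, 9.60, 9.86 and 9.93 in FLM_M and 66.3, 64.6 and 72.7 in FLM_G (2.61 against BMM). Both were low in all 6 libraries of BMM and FLM_M and high in all of FLM_G. Cebpb, a factor needed for Arg1 expression, was at 52.9 to 61.8 in BMM, 61.5 to 68.6 in FLM_M and 317 to 407 in FLM_G. Bhlhe40, a basic helix-loop-helix factor, was at 11.4 to 12.1 in the 6 libraries of BMM and FLM_M and at 96.4 to 102 in FLM_G. Rbpj, the DNA-binding factor of Notch signalling, was the 1 gene that fell, from 21.9 to 24.2 in BMM and 17.4 to 23.5 in FLM_M to 1.89 to 3.47 in FLM_G. Irf4, a STAT6 target that did not pass the filter and was not tested, was at 0.209 to 0.259 in BMM, 0.138 to 0.239 in FLM_M and 1.24 to 1.66 in FLM_G. It is given after its values were seen.

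**Figure D2:**
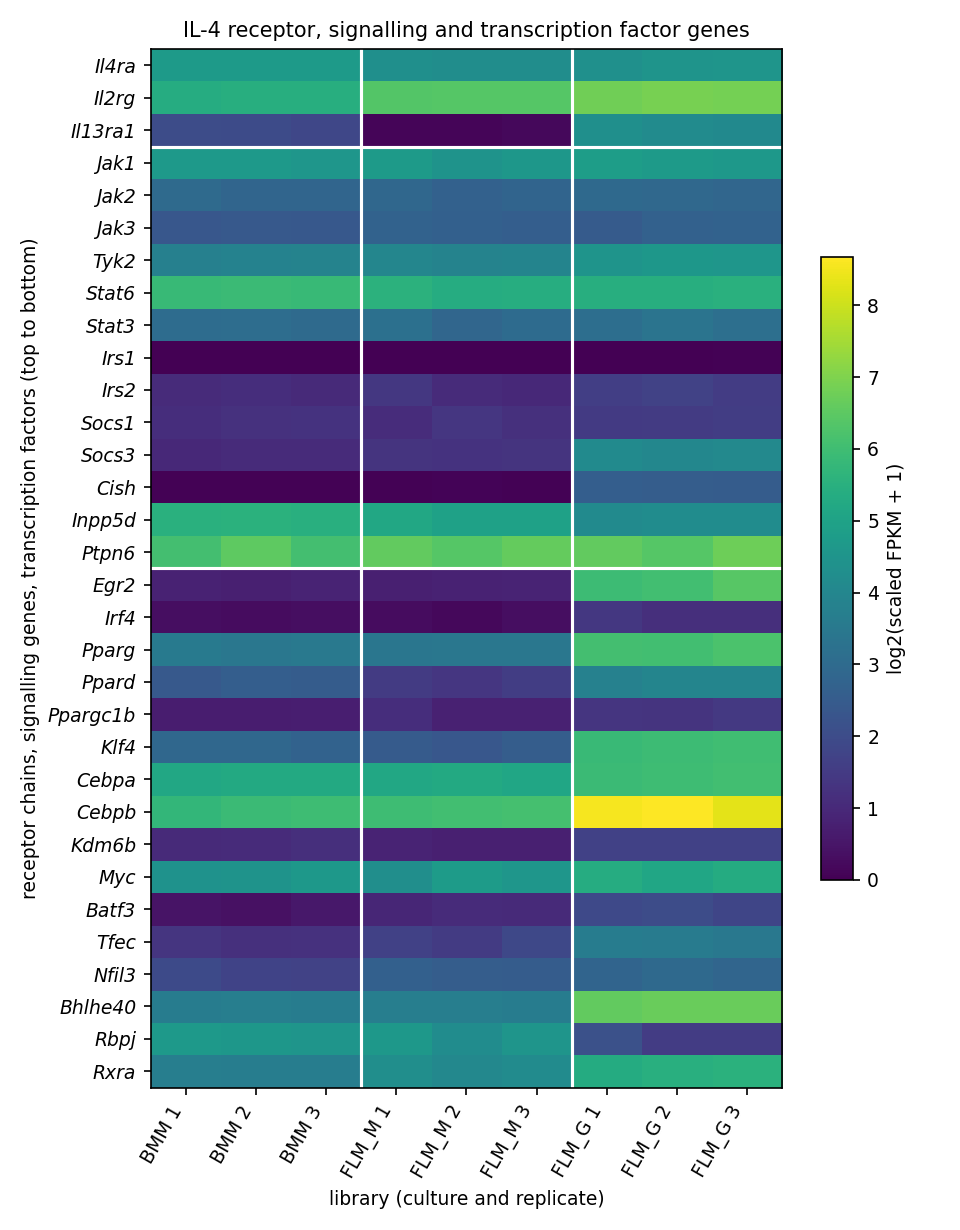
Heat map of log2(scaled FPKM + 1) in the 9 libraries (columns, 3 per culture, white lines between cultures) for receptor chains, 13 signalling genes and 16 transcription factors (rows, in that order). The brightest rows of the factors are in FLM_G, with Cebpb at 317 to 407 scaled FPKM, and Rbpj is the row that darkens there.

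Mrc1 (chromosome 2, 14229392 to 14332057, plus strand) encodes CD206, an endocytic receptor for mannose-ended sugars and the most used surface marker of alternative activation. Its level was 49.5, 42.1 and 42.5 scaled FPKM in BMM, 87.8, 83.8 and 89.5 in FLM_M and 252, 230 and 215 in FLM_G. The 3 cultures formed 3 steps without overlap. FLM_M exceeded BMM 1.95-fold (log2 change 0.95, SE 0.08, limma adjusted p = 1.66e-05). FLM_G exceeded BMM 5.20-fold (2.35, SE 0.08, limma adjusted p = 1.44e-08) and FLM_M 2.67-fold (1.40, SE 0.08, limma adjusted p = 4.08e-07). Mrc1 ranked 1158 of 11952 genes by level in BMM, 536 in FLM_M and 240 in FLM_G. It was the highest of the 10 genes in all 3 cultures by mean, though in BMM its libraries overlapped those of Tgm2. The microRNA gene Mir511 lies within it on the same strand.

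Of the mannose receptor family, Mrc1 and Ly75 passed the filter, and Mrc2 and Pla2r1 did not. Ly75, the endocytic receptor DEC-205, was at 0.052, 0.042 and 0.027 in BMM, listed at 0 in FLM_M and at 37.9, 33.8 and 29.4 in FLM_G. It passed the filter only through FLM_G.

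Tgm2 (chromosome 2, 158116402 to 158146436, minus strand) encodes an enzyme that cross-links proteins and is induced by IL-4 in macrophages of both mouse and human. It had an order of its own, with 41.2, 43.4 and 40.7 scaled FPKM in BMM, 0.470, 0.395 and 0.413 in FLM_M and 11.4, 13.4 and 13.1 in FLM_G. BMM was highest and FLM_M lowest, with no overlap. The BMM mean was 98.2-fold that of FLM_M (-4.91 on the log2 scale, SE 0.07, limma adjusted p = 6.07e-10). By size it was among the 6 greatest of the 11952 changes in that comparison. FLM_G was 3.30-fold below BMM (-1.65, SE 0.07) and 29.7-fold above FLM_M (3.26, SE 0.07), with limma adjusted p of 5.24e-08 and 5.11e-10. The opposite strand holds Rprd1b, at 0.625 to 0.874 in BMM, 0.547 to 0.861 in FLM_M and 3.23, 2.99 and 0.447 in FLM_G. Rprd1b did not follow Tgm2 across the cultures. Gm20412, also on the opposite strand, was likewise highest in BMM, at 0.366, 0.312 and 0.186 against 0 to 0.0393 in FLM_M and 0 to 0.0848 in FLM_G. The sources used here do not name the strand setting behind the FPKM. Of the transglutaminase family of 8 genes, Tgm2 and F13a1, the subunit of clotting factor XIII that macrophages carry, were tested. F13a1 was at 2.62 to 2.94 in BMM, listed at 0 in FLM_M and at 0.0215, 0 and 0 in FLM_G, and is named after its values were seen.

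**Figure D3:**
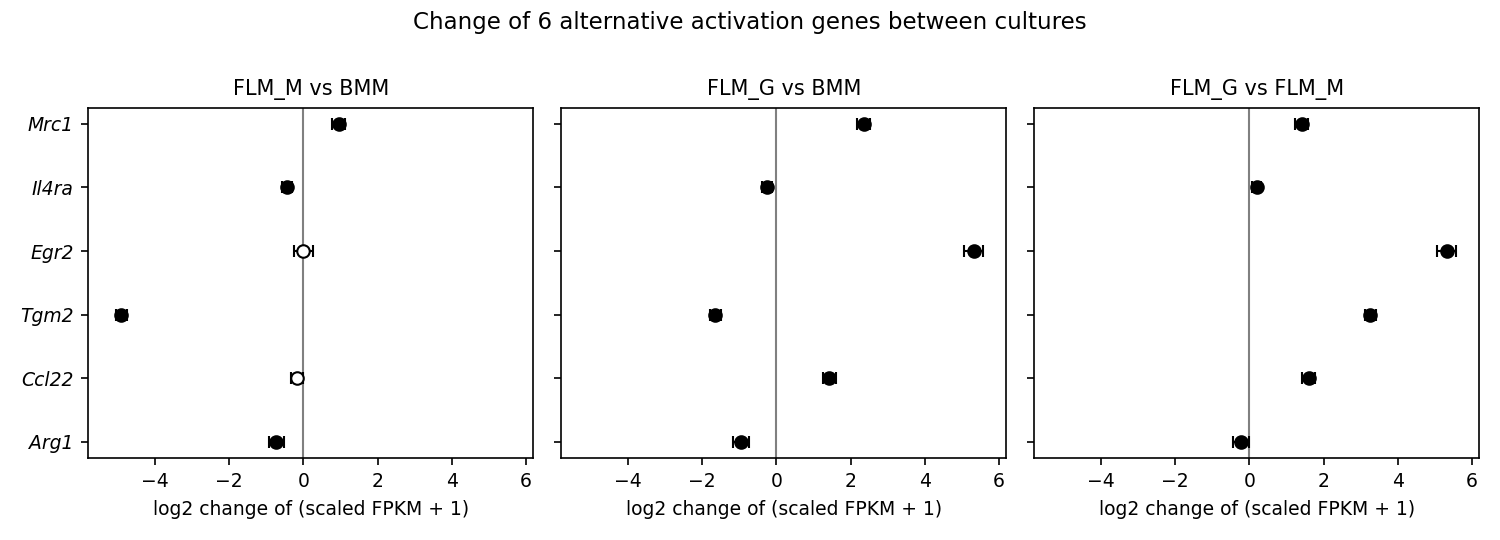
Log2 change of (scaled FPKM + 1) with its 95% interval for 6 genes in the 3 comparisons (panels), filled where called (limma adjusted p under 0.05) and open where not. Ccl17 is left out because BMM and FLM_M are listed at 0. Egr2 lies at 5.31 and 5.32 in the FLM_G panels and at -0.00 in FLM_M against BMM, and Tgm2 reaches -4.91 there.

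Arg1 (chromosome 10, 24915221 to 24927484, minus strand) encodes arginase 1, which splits arginine into ornithine and urea. Its level was low, at 1.58, 1.52 and 1.49 scaled FPKM in BMM, 0.418, 0.654 and 0.517 in FLM_M and 0.317, 0.146 and 0.464 in FLM_G. These equal 76.4 to 82.3, 24.5 to 33.8 and 5.36 to 17.1 reads. BMM stood above both other cultures. The log2 change was -0.73 in FLM_M (SE 0.09) and -0.96 in FLM_G (SE 0.09), given as descriptions because Arg1 passed the filter only through BMM. FLM_G and FLM_M overlapped, and their difference (-0.23, limma adjusted p = 0.0490) was lost under 12 of the alternatives, among them the replicate block and most of the fits that left out a library.

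Arg2 (chromosome 12, 79130777 to 79156301, plus strand), the mitochondrial arginase, did not reach 1 FPKM in any library. It was at 0.041, 0 and 0.056 in BMM, listed at 0 in FLM_M and at 0.072, 0.196 and 0.224 in FLM_G, at most 7.98 reads. Vti1b, a gene on the opposite strand that overlaps it, was at 33.5 to 36.0 in BMM, 23.0 to 28.9 in FLM_M and 38.9 to 41.3 in FLM_G. The deposited counts of Arg2 were 7 to 31, above the reads implied by its FPKM in every library.

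Arginine can also feed nitric oxide, creatine or polyamines, and the genes of these routes lay at very different levels. Of 22 tested genes of amino acid transport, arginine use and polyamine synthesis, 4 were higher and 10 lower in FLM_M against BMM. The counts were 5 and 11 in FLM_G against BMM, and 8 and 10 in FLM_G against FLM_M. Beside them, 44.6%, 68% and 70.6% of all tested genes were called. Arg1, which passed the filter only through BMM, is among the genes called lower against BMM. Without scaling these splits were 5 and 10, 4 and 16, and 5 and 13. Slc7a2, the arginine transporter CAT2, was at 0.531, 0.955 and 0.502 in BMM, 8.25, 6.77 and 16.9 in FLM_M and 25.9, 69.3 and 66.0 in FLM_G. The groups did not overlap, although libraries of 1 culture differed widely, and the log2 change of FLM_G against BMM was 4.93 (SE 0.41, limma adjusted p = 7.30e-06). Ass1, which rebuilds arginine from citrulline, was at 10.7 to 11.8 in BMM, 29.8 to 30.8 in FLM_M and 87.0 to 96.9 in FLM_G. Gatm, the first enzyme of creatine synthesis, was at 36.6 to 38.1 in BMM and 38.1 to 43.7 in FLM_M. In FLM_G it was listed at 0 in 2 libraries and at 0.027 in 1.

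The amino acid transporters Slc7a8 and Slc7a7 were lower in the fetal liver cultures. Slc7a8 was at 191 to 212 in BMM, 144 to 166 in FLM_M and 18.5 to 19.2 in FLM_G. Slc7a7, which exchanges cationic for neutral amino acids, was at 6.59 to 7.22 in BMM, 1.60 to 1.72 in FLM_M and 2.21 to 2.64 in FLM_G. Odc1, the enzyme that turns ornithine into putrescine, was at 40.6 to 43.3 in BMM, 31.5 to 37.9 in FLM_M and 78.3 to 85.0 in FLM_G. Sat1, the acetyltransferase that starts polyamine breakdown, was at 28.7 to 34.5 in the 6 libraries of BMM and FLM_M and at 205 to 209 in FLM_G. Nos2, the inducible nitric oxide synthase that competes with arginase, was listed at 0 in BMM and FLM_G and at 0.027 to 0.083 in FLM_M.

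**Figure D4:**
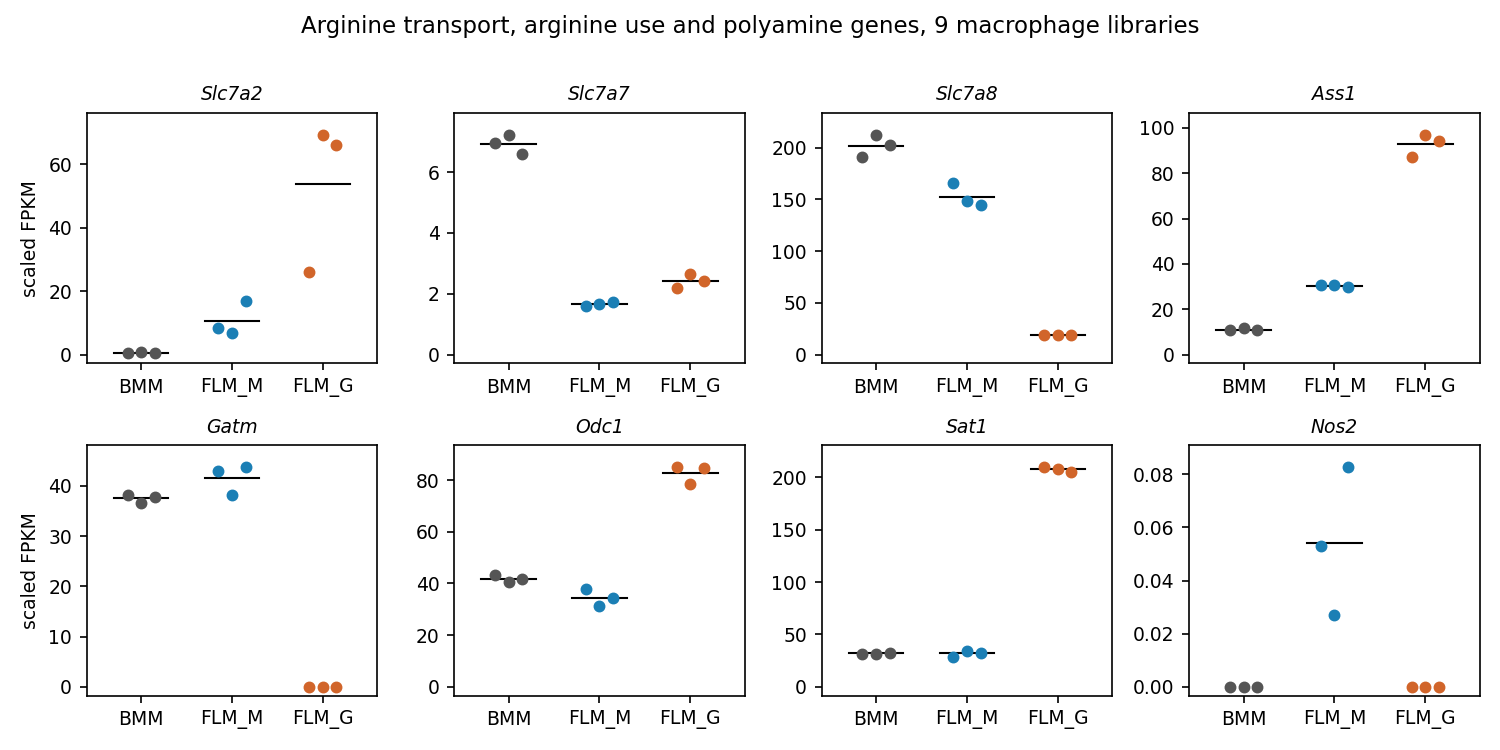
Scaled FPKM (vertical axis, linear, a scale of its own in each panel) of 8 genes of amino acid transport, arginine use and polyamine metabolism in the 9 libraries, by culture. Points are libraries and bars are means, drawn where no library of a culture is at 0. Ass1 steps up from BMM (10.7 to 11.8) to FLM_G (87.0 to 96.9), while Slc7a8 steps down from 191 to 212 to 18.5 to 19.2.

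Retnla (chromosome 16, 48842551 to 48844461, plus strand), the secreted protein RELM-alpha or Fizz1 and a hallmark of IL-4 exposure, was listed at 0 in all 9 libraries. A level of 3 reads would have been worth 0.141 to 0.176 FPKM before scaling, so that Retnla was not detectable at this depth in any culture. No gene of the resistin family passed the filter. Listed zeros can also be failed estimates.

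The chemokine genes Ccl17 (chromosome 8, 94810453 to 94812036, plus strand) and Ccl22 (chromosome 8, 94745590 to 94751699, plus strand) lie 58.8 kb apart, and both products bind the receptor CCR4 on T cells. Ccl17 was listed at 0 in all 6 libraries of BMM and FLM_M, where 3 reads would have been worth 0.165 to 0.189 FPKM. In FLM_G it was at 73.6, 72.6 and 69.6 scaled FPKM, equal to 882 to 929 reads. No fold is given against groups listed at 0. The difference is given as a description, without a test, because Ccl17 passed the filter only through FLM_G. The level of Ccl17 in FLM_G matched that of Egr2, whose libraries overlapped it.

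Ccl22 was at 0.211, 0.226 and 0.192 scaled FPKM in BMM, 0.098, 0.048 and 0.071 in FLM_M and 1.84, 2.42 and 2.50 in FLM_G. These equal 15.9 to 17.1, 3.74 to 8.58 and 95.2 to 138 reads. FLM_G was 10.7-fold above BMM (log2 change 1.42, SE 0.08) and 31.2-fold above FLM_M (1.60, SE 0.08). FLM_M lay below BMM without overlap, but the difference was not called (-0.17, limma adjusted p = 0.0942). It was called with a pseudocount of 0.1 (-0.85, limma adjusted p = 0.00164) and in the fit of the 6 libraries compared (-0.19, limma adjusted p = 0.00170). In FLM_G Ccl17 stood far above its neighbour.

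Ccl24 (chromosome 5, 135569937 to 135573049, minus strand), or eotaxin-2, attracts eosinophils through CCR3. It was at 0.155, 0.066 and 0.123 in BMM, 0.058, 0.088 and 0.095 in FLM_M and listed at 0 in FLM_G, at most 6.90 reads. BMM and FLM_M overlapped. Its pattern is opposite to that of Ccl17 but rests on a few reads. Of the 4 receptors of these chemokines 1 passed the filter, Ccr3, at 1.31, 1.14 and 0.975 in BMM, 1.12, 1.04 and 1.06 in FLM_M and listed at 0 in FLM_G. Ccr4 was listed at 0 throughout.

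The sequences before the starts of Ccl17, Ccl22 and Retnla are shown because STAT6 is the transcription factor that carries the IL-4 signal. Whether STAT6 acted on these sequences in the cultures was not tested. RefSeq windows of 250 bases before a start (GRCm38.p6) were found for 6 of the 10 genes, Mrc1, Retnla, Il4ra, Egr2, Ccl17 and Ccl22. Positions below count back from the RefSeq start. Letters are 5′ to 3′ on the plus strand, and capitals mark matches to the STAT motif TTCNNNGAA and to the STAT6 motif, which has 4 bases in place of 3 between TTC and GAA. Ccl17 is chr8:94810203-94810452, Ccl22 is chr8:94745434-94745589 and Retnla is chr16:48842359-48842550. The last 94 and 58 bases of the Ccl22 and Retnla windows are not printed because GENCODE M21 places them within the gene.
Ccl17: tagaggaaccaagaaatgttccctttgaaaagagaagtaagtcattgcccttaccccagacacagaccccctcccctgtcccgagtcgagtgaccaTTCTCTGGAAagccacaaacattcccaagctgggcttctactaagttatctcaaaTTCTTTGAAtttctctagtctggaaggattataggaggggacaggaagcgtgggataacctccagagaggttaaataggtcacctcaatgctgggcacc
Ccl22: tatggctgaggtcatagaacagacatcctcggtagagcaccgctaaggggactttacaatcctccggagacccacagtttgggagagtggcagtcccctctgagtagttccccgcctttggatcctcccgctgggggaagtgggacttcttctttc
Retnla: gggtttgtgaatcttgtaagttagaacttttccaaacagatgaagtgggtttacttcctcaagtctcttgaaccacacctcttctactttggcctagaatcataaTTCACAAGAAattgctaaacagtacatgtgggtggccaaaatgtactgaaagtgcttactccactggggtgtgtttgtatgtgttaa

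Ccl17 held a match to each STAT motif, TTCTCTGGAA at -154 to -145 and TTCTTTGAA at -99 to -91. Retnla held TTCACAAGAA at -145 to -136. Ccl22, Mrc1, Il4ra and the 5 windows of Egr2 held neither. Both motifs are their own reverse complement, so 1 search covers both strands. Over all 32851 RefSeq windows of the same length 7.02% held the first motif and 5.85% the second. The core of the macrophage factor PU.1, GAGGAA on either strand, stood in 23.3% of all windows, in those of Ccl17, Retnla and Mrc1 and in 4 of the 5 of Egr2. TATAAA, searched on both strands, stood in 12.4% of all windows and in that of Retnla at -30 to -25. The motifs do not overlap in these windows. A match is a stretch of letters, not a bound site. In FLM_G Ccl17 was at 69.6 to 73.6 and Retnla, which also holds a STAT match, was listed at 0.

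Ccl17 and Ccl22 are also known from dendritic cells, so dendritic cell markers were read beside them. Of 8 such markers, 5 were at 0 in every FLM_G library, Flt3 and Xcr1 among them, and the summed level of the 8 was 0.213 to 0.286 in BMM, 0.391 to 0.520 in FLM_M and 2.13 to 3.08 in FLM_G. Nearly all of the FLM_G sum was Clec9a (2.07 to 2.99), and Zbtb46 was at 0.042 to 0.093 there. The 8 granulocyte markers summed to 2.69 to 3.51 in BMM, 9.51 to 12.3 in FLM_M and 49.7 to 56.7 in FLM_G, with S100a8 at 1.77 to 2.06, 9.51 to 12.3 and 49.7 to 56.6 of it. The rise was that of S100a8 alone. S100a9 was at 0.813 to 1.21 in BMM and 0 in FLM_M and FLM_G, Mpo and Prtn3 were above 0 in BMM only, and Elane, Camp and Ly6g were at 0 in every library. Their part in the chemokine levels was not tested. In bulk RNA, a change in the share of cells and a change per cell cannot be told apart.

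Other effector and surface genes of alternative activation were split. Of 24 tested, 10 were higher and 9 lower in FLM_M against BMM, 11 and 10 in FLM_G against BMM, and 11 and 9 in FLM_G against FLM_M, with median changes of 0.09, 0.08 and -0.02. Over all tested genes 44.6%, 68% and 70.6% were called in these comparisons. Without scaling the splits were 11 and 8, 9 and 11, and 10 and 12. Fn1 and Ccl8 passed the filter only through FLM_M, and F13a1, Il10 and Vegfa only through BMM. Dcstamp needed FLM_G to pass. These genes are named after their values were seen, and their calls follow in part from the filter. Chil3, the chitinase-like protein Ym1, was at 0.601, 0.572 and 0.324 in BMM, listed at 0 in FLM_M and at 1790, 1666 and 1719 in FLM_G, and it was tested only through FLM_G, as was Cdh1. The change of Chil3 against BMM was the greatest of all 11952 genes. Clec7a, the beta-glucan receptor dectin-1, was at 6.05 to 6.90 in BMM, 10.3 to 12.6 in FLM_M and 855 to 935 in FLM_G. A second identifier carries the symbol Clec7a, and its values were not read. Mmp12, macrophage elastase, rose over the 3 cultures from 11.3 to 12.4, to 30.3 to 33.4 and to 346 to 409.

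Others of the list differed in order. Ccl7, a chemokine for monocytes, was at 141 to 162 in BMM, 235 to 282 in FLM_M and 0.588 to 0.943 in FLM_G. Cdh1, E-cadherin, which takes part in macrophage fusion, was at 0.093 to 0.184 in BMM, listed at 0 in FLM_M and at 24.3 to 26.8 in FLM_G. Ptgs1, cyclooxygenase 1, was at 4.53 to 5.08 in BMM, 0.885 to 1.23 in FLM_M and 51.3 to 54.5 in FLM_G. FLM_M thus lay below BMM and FLM_G above it in Ptgs1.

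Genes of classical activation, the state set by interferon gamma and bacterial products, were read for contrast. Of 10 tested, 7 were higher and 0 lower in FLM_M against BMM, 5 and 4 in FLM_G against BMM, and 4 and 5 in FLM_G against FLM_M. The shares of all tested genes called higher and lower were 22.7% and 21.9%, 33.8% and 34.1%, and 35.5% and 35.1%. Il1b and Cd38 (the latter named after its values were seen) passed the filter only through FLM_G, so their higher calls there follow in part from it. Without scaling the splits were 7 and 0, 5 and 4, and 3 and 7. Cxcl10, an interferon-induced chemokine, was at 3.49, 4.12 and 3.57 in BMM, 59.0, 58.8 and 76.3 in FLM_M and 0.037, 0 and 0.049 in FLM_G. Il1b was at 0 to 0.096 in BMM, 0.119 to 0.318 in FLM_M and 17.4 to 18.7 in FLM_G, and Fpr2, a formyl peptide receptor, at 0.199 to 0.323, 2.82 to 3.83 and 123 to 127. Tnf was at 31.9 to 34.5 in BMM, 46.7 to 50.3 in FLM_M and 51.2 to 58.8 in FLM_G. Of the genes named here, FLM_G was highest in Il1b, Fpr2 and Tnf and FLM_M in Cxcl10. For Tnf the order of the fetal liver cultures depended on the scaling. It was higher in FLM_G than in FLM_M by 0.20 (limma adjusted p = 0.0221) after scaling, and lower in the FPKM as deposited.

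Within each culture the members took different orders. In BMM the order by mean was Mrc1, Tgm2, Il4ra, Arg1, Egr2, Ccl22 and Ccl24, with Mrc1 and Tgm2 overlapping. In FLM_M it was Mrc1, Il4ra, Egr2, Arg1, Tgm2, Ccl24 and Ccl22, with Arg1 and Tgm2 overlapping and Ccl24 and Ccl22 overlapping. In FLM_G it was Mrc1, Ccl17, Egr2, Il4ra, Tgm2, Ccl22, Arg1 and Arg2, with Ccl17 and Egr2 overlapping and Arg1 and Arg2 overlapping.

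For each tested gene the 3 genes of most similar pattern, by Pearson correlation of log2(scaled FPKM + 1) over the 9 libraries, were looked up among genes reaching 10 scaled FPKM. The 9 libraries form 3 groups, so these values describe the order of 3 means rather than 9 independent points. Mrc1 was closest to Kctd12b, Aldh1l1 and Tmem154 (0.999, 0.997 and 0.996). Tgm2 was closest to G6pdx, Chst12 and Napsa (0.997, 0.995 and 0.992), all highest in BMM and lowest in FLM_M, though over a narrower range (93.1, 46.2 and 72.0 in BMM, FLM_M and FLM_G for G6pdx). Il4ra was closest to Slc48a1, Ap2a2 and Mocos (0.991, 0.979 and 0.979), and Arg1 to Rbmxl1, Rpph1 and Tubb4b (0.987, 0.986 and 0.985). Egr2, Ccl17 and Ccl22 had many near matches, with 198, 204 and 115 genes above 0.99. The nearest were Ear1, Fam181b and Tmem14c for Egr2, Nov, Fstl1 and Cbln1 for Ccl17, and Vat1, Zfp36 and Pnpla2 for Ccl22. Mrc1 had 29 such genes, Tgm2 6, Il4ra 1 and Arg1 0.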

How the data were processed

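RNA of 9 macrophage libraries (3 BMM, 3 FLM_M, 3 FLM_G) was read for 101 cycles from 1 end after a stranded mRNA preparation, per the labels' protocols. HISAT2, StringTie, cutadapt, DESeq2, FastQC and bcl2fastq are listed in the submitters' processing notes, with GRCm38 and mm10 as builds. Which tool made which table, and tool versions, are not given in the sources used here. The authors deposited FPKM per Ensembl gene and, in a second table, whole-number counts per gene without normalization. The deposited counts summed to 782400 to 1170813 per library, against 2.84e+07 to 3.55e+07 reads implied by the FPKM steps (24.6% to 30.6% of low values lay within 0.02 reads of a whole read, 4% by chance). Because they hold so small a part of the reads, they served only as an alternative to the limma fit of FPKM. The library type keeps strand, and the deposited counts of Arg2 (7 to 31), which lies opposite Vti1b, exceeded its implied reads (0 to 7.98), while those of Mrc1 and Il4ra were about 1% of theirs or less. Whether the counts were made with the opposite strand setting was not tested, so they may not be those of the named genes.

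FPKM were divided by TMM factors (edgeR 4.0.16, unweighted) and tested with limma 3.58.1 (trend) in R 4.3.3 on log2(scaled FPKM + 1), with 1 mean per culture in a fit of all 9 libraries, which leaves 6 residual degrees of freedom. The filter was 1 FPKM in at least 3 libraries. Gene positions are from GENCODE M21 (GRCm38) and promoters from RefSeq (GRCm38.p6). The same fit was also run on data simulated from the BMM means and each gene's own spread. Those settings came from these data, so that run is not an independent check.

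The 10 genes, the gene lists and the tests were chosen with earlier results of these data known. Of each list up to 6 genes per comparison were named, those called with the largest change and a mean of at least 5 scaled FPKM in the higher group, besides ligands, receptor chains, Nos2, Ccr3 and Ccr4. Genes named outside that rule are marked. Same-numbered libraries were not paired: deviations from the group means correlated at -0.08 to 0.09. Alternatives were other scalings, filters and pseudocounts, only the 6 libraries compared, a replicate block, edgeR and DESeq2 1.42.0 on the deposited counts, and each library left out.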

Additional observations from a re-analysis of the deposited data

How the results depend on the processing

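Leaving out 1 library at a time, 4 to 5 members were called in FLM_M against BMM, 7 to 7 in FLM_G against BMM and 6 to 7 in FLM_G against FLM_M, and all genes called numbered 4429 to 5625, 7452 to 8205 and 7853 to 8337. With the replicate number as a block, 4, 7 and 6 members were called. The numbers do not pair the libraries, and apart from Arg1 in FLM_G against FLM_M no member's call changed under the replicate block. The main fit tested 11952 genes and 7 members. On the deposited counts, edgeR tested 7490 genes and 5 members, and called 1300, 2458 and 2855 genes and 2, 4 and 4 members. DESeq2 tested 12564 genes and 7 members in each comparison with BMM, and 12917 genes in FLM_G against FLM_M. It called 838, 2213 and 2641 genes and 2, 5 and 5 members. The deposited counts may have been made with the opposite strand setting, which was not tested. The calls and signs drawn from them may therefore not be those of the named genes. The cause of these differences was not tested.

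Values that changed sign were these. In FLM_M against BMM, Arg1 was at 0.56 with DESeq2 and Il4ra at 0.24 with edgeR and 0.17 with DESeq2, none called. Egr2, at -0.00, was at 0.0274 without scaling, 0.00272 with the filter at 5 FPKM and 0.0376 with edgeR, and at -0.0283 to 0.0246 without single libraries, none called. In FLM_G against BMM, edgeR gave Il4ra 0.000567 and Stat6 0.0768, and DESeq2 gave Stat6 0.0251. In FLM_G against FLM_M, Il4ra was at -0.27 without scaling, -0.24 with edgeR and -0.23 with DESeq2, and Il2rg at -0.0178 without scaling. Tnf in FLM_G against FLM_M was also lower without scaling. No other member or gene named with a change reversed. Arg1 in FLM_G against FLM_M, at -0.23, ranged from -0.32 to -0.14 when libraries were left out and was called in 2 of those 9 fits.

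Levels under 3 reads, such as several of Arg2 and Ccl24, cannot be told from 0 at this depth.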
